A study of Drosophila melanogaster with 4 samples.

Results

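Genes of yolk supply and oocyte lipid uptake, 10 in all, were followed in *Drosophila melanogaster* ovaries: the yolk protein genes *Yp1*, *Yp2* and *Yp3*, the receptor genes *yl*, *LpR1* and *LpR2*, the lipid carrier genes *apolpp* and *Mtp*, and the lipid storage genes *Lsd-2* and *mdy*. They were taken by their FlyBase symbols. All 10 matched an identifier among the 17023 genes listed, and all 10 had enough counts to be tested. Poly(A) RNA was sequenced from ovaries of flies 2 to 3 days after eclosion, in 2 genotypes with 2 libraries each. Every fly carried UAS-Dcr2, which strengthens RNA interference, and nosGAL4, a driver active in germ cells. The hairpin of the first genotype targets *bam*, the factor that a germline stem cell daughter needs to begin differentiation. The second hairpin targets *Nipped-A* (written Nipped_A in the labels), the scaffold subunit shared by the Tip60 and SAGA acetyltransferase complexes. No untreated ovaries are among the samples, and the knockdowns can only be set against each other. Both hairpins are driven in the germline, whereas the follicle cells that surround it, the ovarian muscle and any attached fat body do not express the driver.

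Yolk proteins are made by the fat body and by the follicle cells, are secreted, and are taken into the growing oocyte by receptor-mediated endocytosis. The receptor is Yolkless, encoded by *yl* and made in the germline, a member of the low-density lipoprotein receptor family. Neutral lipid reaches the oocyte separately, on lipophorin particles that bind the lipophorin receptors, and is stored there in lipid droplets.

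Nothing in these files counts egg chambers. In bulk ovary RNA, fewer cells of a type and less RNA per cell cannot be told apart, and this holds for every level below. Depth was 33844807 and 23866988 counts for *bam* RNAi libraries 1 and 2. It was 47825006 and 21193517 counts for the libraries labelled Nipped_A RNAi 1 and 2. The target *bam* was the lower one where it was targeted, with 4.10-fold more in the Nipped_A RNAi libraries (edgeR adjusted p = 0.0254). *Nipped-A* was 1.62-fold higher in the libraries that carry its own name than in the *bam* RNAi libraries (edgeR adjusted p = 0.0287). With no untreated ovaries, whether its hairpin lowered it cannot be told. Directions therefore follow the library labels, and Nipped_A RNAi names below are those of the labels. The Nipped_A RNAi libraries differed from each other more than the *bam* RNAi libraries did, with a chi-square per gene of 226 against 21.4 (genes with at least 10 counts over the pair). No pair agreed within sampling noise. Nothing in the labels says that the libraries are from separate cohorts, and the p-values then cover only the spread between these 4 samples, which may be technical.

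Of the 10 genes, 7 rose and 0 fell in the libraries labelled Nipped_A RNAi, where 11.3% of the 10245 genes tested rose, 8.31% fell and 19.6% changed either way (edgeR quasi-likelihood test, two-sided, Benjamini-Hochberg threshold 0.05 over all genes). All 10 had a mean of at least 10 CPM (counts per 1000000 counts of a library, with library totals scaled by TMM factors), and among the genes that reached that level 13.8% rose. The 7 were the 3 yolk protein genes, *yl*, *LpR2*, *apolpp* and *Lsd-2*. *LpR1*, *Mtp* and *mdy* were not called. In 8 of the 10 both Nipped_A RNAi libraries lay above both *bam* RNAi libraries, as 33.6% of all genes tested did, and 35.3% lay wholly below. The median log2 fold change of the 10 was 0.91, against −0.0011 over all genes tested. The 10 were chosen with earlier results of these data known, so these comparisons describe them and test nothing. The calls rest on having both *bam* RNAi libraries. Without *bam* RNAi library 1 or 2 edgeR kept none of them, nor any other call of the whole table. All 10 log2 fold changes were positive without library 1 or 2, where the median over all genes was 0.0481 and −0.00789.

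**Figure D1:**
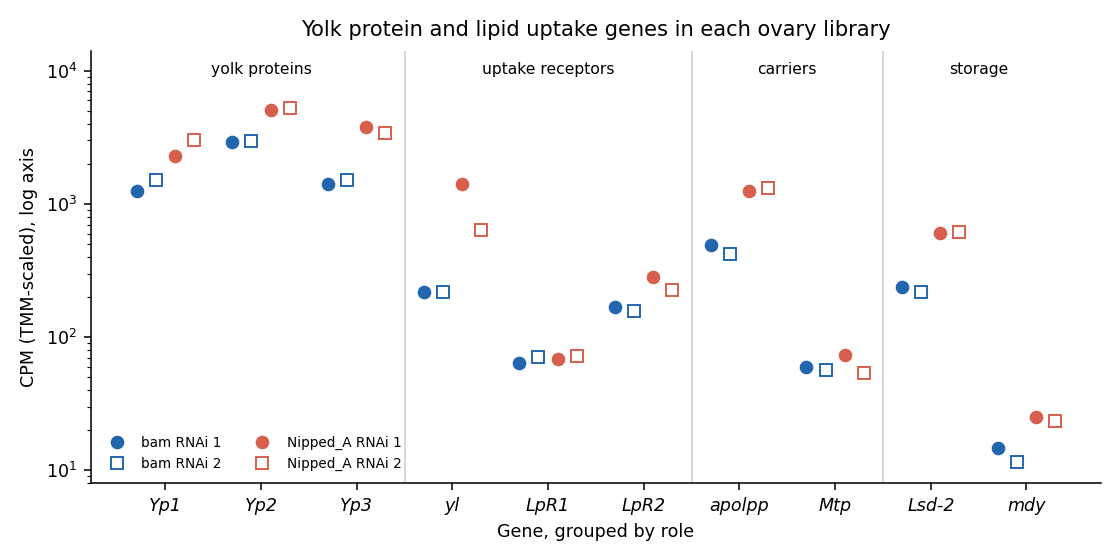
CPM (TMM-scaled, log axis) of the 10 genes in each of the 4 libraries, with blue for *bam* RNAi, red for Nipped_A RNAi, filled circles for library 1 and open squares for library 2. Red lies above blue for every gene except *LpR1* and *Mtp*, and the widest gap within a group is that of *yl* in the Nipped_A RNAi libraries, at 1403 and 634 CPM.

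The yolk protein genes were the most abundant of the 10 and all 3 rose, by 1.76-fold to 2.47-fold. Together they took 0.545% of all counts in *bam* RNAi library 1 (95% Wilson interval 0.543% to 0.548%) and 0.591% in library 2 (0.588% to 0.594%). In Nipped_A RNAi libraries 1 and 2 they took 1.15% (1.147% to 1.153%) and 1.17% (1.17% to 1.18%). These intervals cover counting error only. By rank of counts *Yp2* moved from place 23 and 24 in the *bam* RNAi libraries to place 4 and 3 in the others, and *Yp3* from place 100 and 101 to place 6 and 8.

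*Yp1* (FBgn0004045) lies on the X chromosome, at chrX:10053811-10055498 (dm6) on the plus strand. Its level was 1255 and 1513 CPM in *bam* RNAi libraries 1 and 2 (1384 ± 182, mean ± SD, n = 2). In Nipped_A RNAi libraries 1 and 2 it was 2281 and 2997 CPM (2639 ± 506). The groups did not overlap, and library 2 was the higher one in each. Its log2 fold change was 0.93 ± 0.19 (SE; edgeR adjusted p = 0.0307). That call ended under upper-quartile scaling, at 0.72 (edgeR adjusted p = 0.0596).

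*Yp2* (FBgn0005391, chrX:10050951-10052636, minus strand) is transcribed away from *Yp1*, with 1174 bases between the divergent pair. The pair is known for sharing regulatory sequence in that interval. Its level was 2901 and 2994 CPM with *bam* RNAi (mean 2948 ± 65.2, SD, n = 2) and 5100.0 and 5281 CPM with Nipped_A RNAi (mean 5190.4 ± 128). Both pairs of libraries were tight and well apart. The log2 fold change was 0.82 ± 0.12 (SE; edgeR adjusted p = 0.0174).

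*Yp3* (FBgn0004047, chrX:13759546-13761547, plus strand), which lies apart from that pair, stood at 1407 and 1509.7 CPM with *bam* RNAi (mean 1459 ± 72.5, SD, n = 2) and 3812 and 3390.1 CPM with Nipped_A RNAi (mean 3601 ± 298). Here library 1 was the higher of the Nipped_A RNAi pair, the reverse of *Yp1*. With a log2 fold change of 1.30 ± 0.14 (SE; edgeR adjusted p = 0.0108), it had the largest fold change of the 3.

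Ratios of counts within a library do not depend on the scaling between libraries, and 8 such ratios were compared with an exact permutation test. With 2 against 2 libraries the smallest two-sided p is 0.333, so none could pass 0.05, and the ratios are given as values. The ratio of *Yp1* to *Yp2* counts was 0.432 and 0.505 in the *bam* RNAi libraries and 0.447 and 0.568 in the others (exact permutation p = 0.667, adjusted over the 8 ratios 0.667). The groups overlapped, and any shift in the proportions of the divergent pair was within the spread between libraries. *Yp3* to *Yp1* was 1.12 and 0.998 against 1.67 and 1.13 (exact permutation p = 0.333, adjusted 0.444). The groups did not overlap, but the lowest Nipped_A RNAi value lay next to the highest *bam* RNAi value. The log2 difference of 0.38 became 0.10 without Nipped_A RNAi library 1.

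Levels can be set between genes only per length, here as CPM per kilobase of exonic sequence. In the *bam* RNAi libraries *Yp2* had 1822 ± 40.3, *Yp1* 859 ± 113 and *Yp3* 781 ± 38.8 CPM per kilobase (SD, n = 2), and *Yp1* and *Yp3* overlapped. In the libraries labelled Nipped_A RNAi *Yp2* had 3208 ± 79.0, *Yp3* 1928 ± 160 and *Yp1* 1638 ± 314 CPM per kilobase, and *Yp3* and *Yp1* again overlapped. The level of *Yp1* is uncertain, because an antisense gene, asRNA:CR45601, covers 875 of its 1611 exonic bases. That antisense gene was listed at 0 in all 4 libraries. Of 18 genes whose exons lie wholly inside the exons of an opposite-strand gene with at least 10000 counts over the 4 libraries, all 18 were at 0. Of 26 genes nested in this way on the same strand, 25 were at 0. Whether these nested genes are transcribed in ovaries was not tested. The strand setting of the counting is not given in the sources used here, and whether reads over both genes were left out was not tested. Over the 736 bases that *Yp1* shares with no other listed gene its level would be 1880 ± 248 and 3585 ± 688 CPM per kilobase, which overlaps *Yp2* in both groups. The place of *Yp1* in this order therefore depends on the length used, while its fold change does not.

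The receptor genes differed among themselves: *yl* had the largest fold change of the 10, *LpR2* rose less, and *LpR1* was level within the spread. *yl* (FBgn0004649, chrX:14193214-14199958, plus strand) stood at 218 CPM in each *bam* RNAi library (mean 218 ± 0.475, SD, n = 2) and at 1403 and 634 CPM in the Nipped_A RNAi libraries (mean 1019 ± 544). Both Nipped_A RNAi values stood clear of the *bam* RNAi values, at least 2.90-fold above them, yet they differed from each other by 2.21-fold. Its log2 fold change was 2.22 ± 0.38 (SE; edgeR adjusted p = 0.0219), or 4.67-fold. Without Nipped_A RNAi library 1 it was 1.53 and without library 2 it was 2.75, so its size depends on the library while its direction does not. Without *bam* RNAi library 1 or 2 it was 2.24 and 2.23.

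The ratio of summed yolk protein counts to *yl* counts was 25.5 and 27.6 in the *bam* RNAi libraries. It was 7.98 and 18.4 in the Nipped_A RNAi libraries (exact permutation p = 0.333, adjusted 0.444). Both of the latter were below both of the former, and library 1 was lowest. The log2 difference of −1.13 was −0.53 without Nipped_A RNAi library 1 and −1.73 without library 2.

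*LpR1* and *LpR2* encode the lipophorin receptors and lie side by side on chromosome 3R, both on the minus strand and 882 bases apart. *LpR2* (FBgn0051092, chr3R:25698727-25740465) stood at 169.9 and 156 CPM with *bam* RNAi (mean 163 ± 9.64, SD, n = 2) and 282 and 227 CPM with Nipped_A RNAi (mean 254 ± 38.5). The groups did not overlap. The log2 fold change was 0.64 ± 0.16 (SE; edgeR adjusted p = 0.0459), close to the threshold. The call ended under upper-quartile scaling (0.43, adjusted p = 0.0830), under limma-voom (0.64, adjusted p = 0.0525) and with the trend of fold change with gene length removed in edgeR (0.34, adjusted p = 0.171).

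*LpR1* (FBgn0066101, chr3R:25741348-25763105) stood at 64.1 and 70.5 CPM with *bam* RNAi (mean 67.3 ± 4.58, SD, n = 2) and 68.6 and 72.0 CPM with Nipped_A RNAi (mean 70.3 ± 2.39). The groups overlapped, and the log2 fold change was 0.06 ± 0.15 (SE; edgeR adjusted p = 0.787). Its sign turned under upper-quartile scaling, at −0.15, and with the length trend removed, at −0.29, with no call in either. The ratio of *LpR1* to *LpR2* counts was 0.377 and 0.451 in the *bam* RNAi libraries and 0.244 and 0.317 in the others (exact permutation p = 0.333, adjusted 0.444). Both Nipped_A RNAi values were lower, which is as far as 2 libraries a group can separate neighbouring paralogs. Reads shared between the paralogs could be divided by the counting, which is not described in the sources used here.

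**Figure D2:**
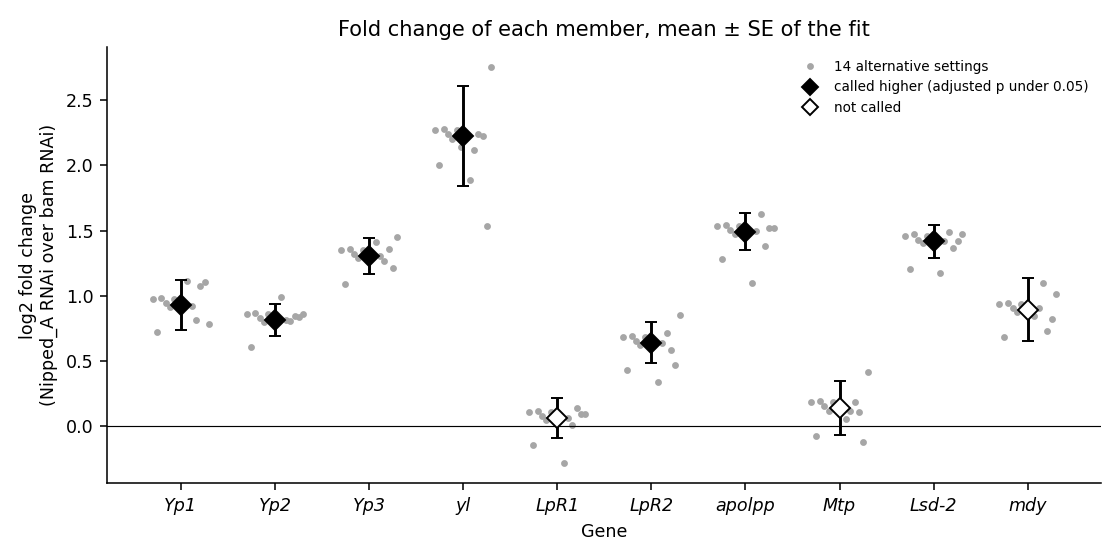
Log2 fold change (Nipped_A RNAi over *bam* RNAi) of the 10 genes, with diamonds for the edgeR fit ± SE, filled where called, and grey dots for the 14 alternative settings. *yl* is highest at 2.22 with the widest scatter of grey dots, from 1.53 to 2.75, and *LpR1* and *Mtp* are the 2 genes whose dots fall on both sides of 0.

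Among the lipid carriers, *apolpp* rose and *Mtp* was not called. *apolpp* (FBgn0087002, chr4:1060969-1077273, plus strand) encodes the apolipophorins, the protein of the lipophorin particle, and is known as a fat body product. Its level was 493 and 419 CPM with *bam* RNAi (mean 456 ± 52.1, SD, n = 2) and 1248 and 1317 CPM with Nipped_A RNAi (mean 1283 ± 49.0). Each pair was close and the groups were far apart. The log2 fold change was 1.49 ± 0.14 (SE; edgeR adjusted p = 0.00996). It was 1.10 with the length trend removed (edgeR adjusted p = 0.0129), and the gene has 11766 exonic bases, the longest of the 10. Its exons share 96 bases with *Zyx* on the opposite strand, which had 4476, 2830, 4213 and 2243 counts in the 4 libraries.

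*Mtp* (FBgn0266369, chr2L:20919094-20922876, minus strand) encodes the microsomal triglyceride transfer protein, which loads lipid onto apolipoproteins as they are made. Its level was 59.4 and 56.9 CPM with *bam* RNAi (mean 58.1 ± 1.81, SD, n = 2) and 74.1 and 53.8 CPM with Nipped_A RNAi (mean 63.9 ± 14.3). The Nipped_A RNAi libraries lay on either side of the *bam* RNAi libraries. The log2 fold change was 0.14 ± 0.21 (SE; edgeR adjusted p = 0.660). It was −0.12 without Nipped_A RNAi library 1 and 0.42 without library 2, and −0.077 under upper-quartile scaling. The count ratio of *apolpp* to *Mtp* was 8.30 and 7.37 in the *bam* RNAi libraries and 16.9 and 24.5 in the others (exact permutation p = 0.333, adjusted 0.444). Both Nipped_A RNAi values lay above both *bam* RNAi values.

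Of the storage genes, *Lsd-2* rose and *mdy* was not called. *Lsd-2* (FBgn0030608, chrX:15069127-15076220, minus strand) encodes a perilipin that coats lipid droplets. Its level was 238 and 220.0 CPM with *bam* RNAi (mean 229 ± 12.9, SD, n = 2) and 609 and 616 CPM with Nipped_A RNAi (mean 612 ± 5.09). The Nipped_A RNAi libraries were almost equal, 1.01-fold apart, and the groups did not overlap. The log2 fold change was 1.42 ± 0.13 (SE; edgeR adjusted p = 0.00925). The count ratio of *Lsd-2* to *Lsd-1*, the other perilipin gene, was 5.83 and 4.24 against 8.21 and 6.10 (exact permutation p = 0.333, adjusted 0.444). The lowest Nipped_A RNAi value was just above the highest *bam* RNAi value. The log2 difference of 0.51 ranged from 0.28 to 0.74 with one library left out.

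*mdy* (FBgn0004797, chr2L:16816660-16826964, plus strand) encodes diacylglycerol acyltransferase 1, which makes triglyceride in nurse cells. It was the least abundant member, at 14.7 and 11.5 CPM with *bam* RNAi (mean 13.1 ± 2.27, SD, n = 2) and 25.3 and 23.3 CPM with Nipped_A RNAi (mean 24.3 ± 1.44). The groups did not overlap. The log2 fold change of 0.89 ± 0.24 missed the threshold (SE; edgeR adjusted p = 0.0568), and the gene was called in 7 of the 15 settings run, DESeq2 among them (adjusted p = 0.00429). *Dgat2*, the other enzyme of this step, had 0.482 and 0.852 CPM against 1.51 and 3.42 CPM and was not called. The ratio of *mdy* to *Dgat2* counts was 30.4 and 13.45 against 16.8 and 6.81, and the groups overlapped (exact permutation p = 0.667, adjusted 0.667).

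Per kilobase, the storage gene *Lsd-2* ranked next below the yolk protein genes in the *bam* RNAi libraries, at 49.8 ± 2.80 CPM per kilobase. It was followed by *apolpp* at 38.8 ± 4.43, *yl* at 34.3 ± 0.0748, *LpR2* at 29.6 ± 1.75, *Mtp* at 19.8 ± 0.618, *LpR1* at 10.1 ± 0.690 and *mdy* at 4.86 ± 0.846 CPM per kilobase (SD, n = 2). Neighbours in this order did not overlap. In the libraries labelled Nipped_A RNAi *yl* stood at 160.4 ± 85.6 CPM per kilobase and overlapped *Lsd-2* at 133 ± 1.11. *apolpp* followed at 109 ± 4.16, *LpR2* at 46.1 ± 6.995, *Mtp* at 21.8 ± 4.89, *LpR1* at 10.6 ± 0.360 and *mdy* at 9.04 ± 0.535. *yl* stood below *apolpp* and *Lsd-2* in both *bam* RNAi libraries. In the others its place differed by library, since *yl* had 221 CPM per kilobase in library 1, above both genes, and 99.9 in library 2, below *Lsd-2* at 133.9 and *apolpp* at 112. Its values thus overlapped those of both.

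**Figure D3:**
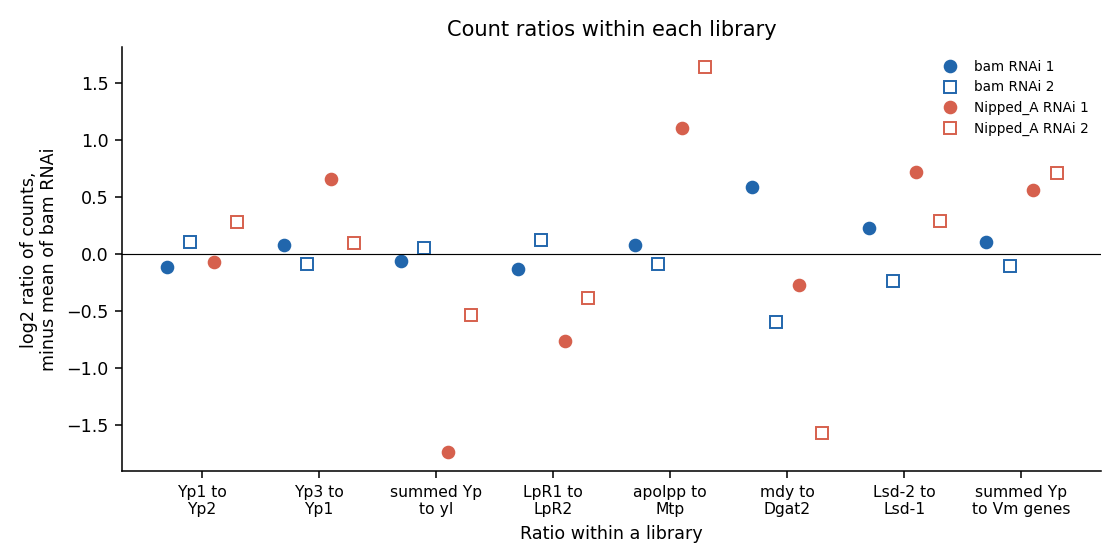
Log2 ratio of counts within each library, minus the mean of the *bam* RNAi libraries, for 8 pairs (blue for *bam* RNAi, red for Nipped_A RNAi, filled circles for library 1, open squares for library 2). Red and blue are apart for 6 pairs and overlap for *Yp1* to *Yp2* and *mdy* to *Dgat2*. With 2 against 2 libraries such a separation has an exact permutation p of 0.333. Among the levels of all genes tested, 33.6% lay wholly above and 35.3% wholly below in the Nipped_A RNAi libraries.

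Of the 10 genes, 5 lie on the X chromosome, and all 5 rose (*Yp1*, *Yp2*, *Yp3*, *yl* and *Lsd-2*). Over all genes tested, 12.1% of those on the X chromosome rose and 11.1% of those elsewhere. Genes with the most similar levels over the 4 libraries were found by Euclidean distance of log2 CPM, centred on each gene's mean, among 6972 other named genes that averaged 10 CPM or more. Nearest to *Yp1* were *CG8229* at a distance of 0.0654, the perilipin gene *Lsd-1* at 0.0665 and *Arc1* at 0.0676. Nearest to *Yp3* were *rno* at 0.0289, *CG8089* at 0.132 and *CG7565* at 0.134. Nearest to *yl* were *swa* at 0.145, *fs(1)M3* at 0.228 and *CG7888* at 0.246. *swa*, which acts in localising *bcd* RNA in the oocyte, had 35.6 and 34.3 CPM against 217 and 112 CPM. *fs(1)M3*, an eggshell gene, had 34.4 and 32.4 CPM against 192 and 108 CPM. Both were about as uneven between the Nipped_A RNAi libraries as *yl*, which a choice by distance over the same libraries favours. A distance over 4 libraries is a description only.

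The other genes of the pathway were taken from lists chosen with earlier results of these data known. Counts under other settings are to be read against the share of all genes called there. DESeq2 called 20.6% of all genes higher, upper-quartile scaling 8.33%, limma-voom 8.36% and the fit with the length trend removed 7.89%. With Nipped_A RNAi library 1 or 2 left out, edgeR called 19.7% and 23.1% higher and 16.5% and 15.7% lower. Upper-quartile scaling called 15.2% lower, and robust moderation called 11.7% higher and 9.61% lower. Calls from fits without a Nipped_A RNAi library rest on the spread of the *bam* RNAi pair alone. Among 12 regulators of yolk protein genes 4 rose and 0 fell, with a median log2 fold change of 0.42. *Aef1*, a repressor that binds a yolk protein gene enhancer, went from 82.2 and 74.6 CPM to 211 and 164 CPM (1.26 ± 0.17 on the log2 scale, edgeR adjusted p = 0.0155). The ecdysone receptor gene *EcR* went from 60.6 and 46.6 CPM to 149.8 and 122 CPM (1.34 ± 0.20), and its partner *usp* rose as well, by 0.72. That call of *usp* ended under upper-quartile scaling, limma-voom, the length correction and the replicate block. The GATA factor gene *srp* rose by 0.70, but was not called with the length trend removed (0.38, edgeR adjusted p = 0.108) or under upper-quartile scaling (0.49, adjusted p = 0.0565). *dsx*, whose female product activates the yolk protein genes in the fat body, had 97.7 and 87.3 CPM against 45.2 and 86.2 CPM and was not called. Its log2 fold change was −0.97 without Nipped_A RNAi library 2 and −0.11 without library 1. Removing the length trend, like upper-quartile scaling, left 2 of the 4 calls.

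Of the 4 genes of the receptor family and its chaperone, 2 rose, and their median was 0.56. *LRP1*, another low-density lipoprotein receptor relative, went from 116 and 95.3 CPM to 219 and 227 CPM (1.08 ± 0.15, edgeR adjusted p = 0.0156). The call of *mgl* (0.57) ended under upper-quartile scaling, with the length trend removed and with the replicate block. *boca*, the chaperone that Yolkless and its relatives need to reach the cell surface, had 41.9 and 39.8 CPM against 33.6 and 31.0 CPM and was not called. Both of its Nipped_A RNAi values were lower. Among 18 genes of endocytosis and recycling 1 rose, the epsin gene *lqf* (0.60 ± 0.13, edgeR adjusted p = 0.0367), and 0 fell, with a median of 0.07. The call of *lqf* ended under upper-quartile scaling, with the length trend removed and with the replicate block. DESeq2 called 4 of the 18 higher and upper-quartile scaling 3 lower, close to the shares of all genes called in those settings. The clathrin heavy chain gene *Chc* had 841 and 749 CPM against 932 and 927 CPM, and *Rab5* 337 and 314 against 319 and 463 CPM. Neither was called, and the log2 fold change of *Rab5* was 0.50 without Nipped_A RNAi library 1.

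**Figure D4:**
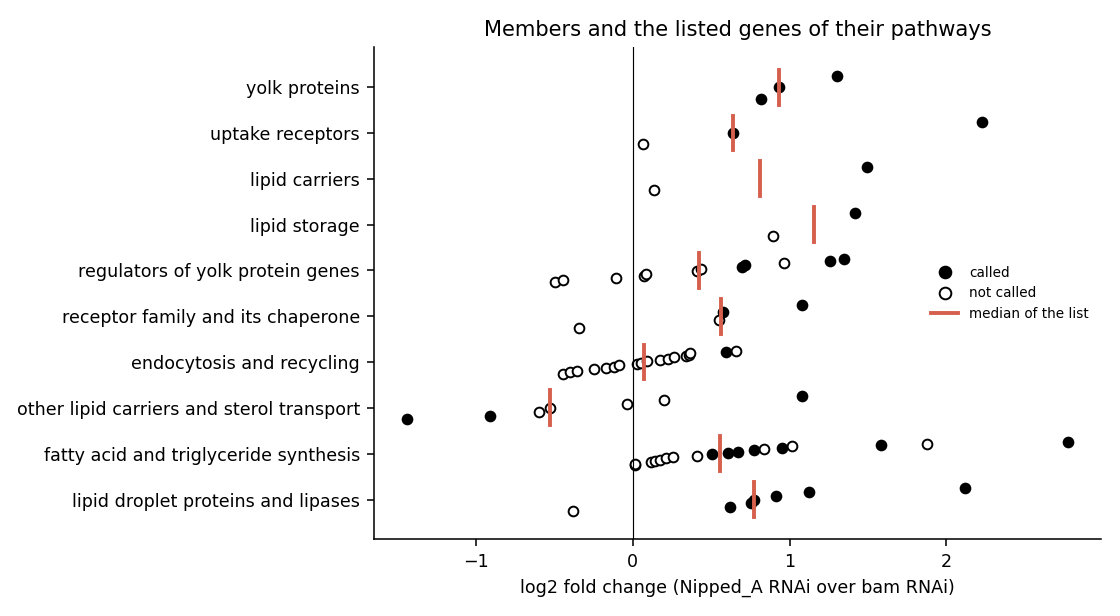
Log2 fold change (Nipped_A RNAi over *bam* RNAi) of each of the 10 members, in 4 rows by role, and of each tested gene of the 6 pathway lists, filled where called, with a red bar at the median of each row. The endocytosis genes gather around 0 (median 0.07), while the lipid droplet genes lie mostly to the right (median 0.77).

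Of 7 tested genes of other lipid carriers and sterol transport, 1 rose and 2 fell. Their median log2 fold change was −0.53. Without Nipped_A RNAi library 1, 2 were called higher, and without library 2, 4 were called lower. The lipocalin gene *NLaz* rose from 33.3 and 26.6 CPM to 52.6 and 74.1 CPM (1.08 ± 0.25, edgeR adjusted p = 0.0388), and this call ended under upper-quartile scaling. *cv-d*, which encodes another apolipophorin-like protein, fell from 49.0 and 45.4 CPM to 23.9 and 26.5 CPM (−0.91 ± 0.18, edgeR adjusted p = 0.0306). *Npc2b* fell from 39.1 and 39.6 CPM to 11.7 and 17.3 CPM (−1.44 ± 0.26), which was not called once the length trend was removed. *Apoltp*, the lipid transfer particle gene, had 67.9 and 69.8 CPM against 40.6 and 50.6 CPM and was not called, although it was lower under upper-quartile scaling, DESeq2, the length correction and without either Nipped_A RNAi library. The apolipophorin relatives *apolpp* and *cv-d* thus changed in opposite directions.

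Fatty acid and triglyceride synthesis had 7 of 18 tested genes higher and 0 lower, with a median of 0.56. *Agpat1* went from 4.04 and 3.15 CPM to 29.5 and 19.8 CPM (2.77 ± 0.34, edgeR adjusted p = 0.0134), and *Agpat2* from 15.7 and 18.1 CPM to 49.0 and 52.2 CPM (1.58 ± 0.19). Both encode acyltransferases of the step that makes phosphatidic acid. *AcCoAS*, the acetyl-CoA synthetase gene, went from 58.7 and 56.6 CPM to 106 and 117 CPM (0.95 ± 0.14). *Lpin*, *ACC*, *Acsl* and *Desat1* also rose, by 0.51 to 0.77. Under upper-quartile scaling, and likewise with the length trend removed, 4 of the 18 were called, and *Lpin*, *ACC* and *Acsl* were not among them. *ACC* and *Acsl* also lost the call with the replicate block, and *ACC* under limma-voom. Without Nipped_A RNAi library 2, 11 of the 18 were called. *SREBP*, the transcription factor of lipid synthesis, had 217 and 233 CPM against 237 and 218 CPM, with overlapping groups.

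Among 7 genes of lipid droplet proteins and lipases 6 rose and 0 fell, with a median of 0.77. *Jabba*, which anchors histones on droplets, went from 108 and 99.6 CPM to 562 and 341 CPM (2.12 ± 0.26, edgeR adjusted p = 0.0136). *klar*, which acts in droplet transport, rose by 0.77 ± 0.13, and *Seipin*, which acts in droplet formation, by 1.12 ± 0.22. The lipase genes *bmm* and *Hsl* rose by 0.76 and 0.62 and *Lsd-1* by 0.92. With the length trend removed 3 of the 7 rose, without *Hsl*, *Lsd-1* and *klar* (0.39, edgeR adjusted p = 0.120). *Hsl* and *Lsd-1* were not called under upper-quartile scaling or limma-voom either, nor *Hsl* with the replicate block. *sturkopf* had 75.3 and 79.4 CPM against 61.8 and 57.3 CPM and was not called, except as lower under upper-quartile scaling (−0.59) and without Nipped_A RNAi library 1 (−0.44).

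Marker genes of the cells that make, receive or could carry these transcripts moved as well, and their part in the results was not tested. The general follicle cell list had 0 of 5 genes higher and 2 lower, *eya* (−1.01) and *mirr* (−1.09). Its summed level was 1261 and 1157 CPM in the *bam* RNAi libraries and 796 and 1062 CPM in the others. Without Nipped_A RNAi library 2 all 5 were called lower. The list of vitelline membrane and eggshell genes, made by follicle cells of growing egg chambers, had 5 of 10 higher and 0 lower, with sums of 3972 and 4752 against 7198 and 6480.1 CPM. DESeq2 called 9 of these 10 higher, as did edgeR without Nipped_A RNAi library 2, and 8 were higher with the length trend removed. *dec* (1.54), *Vm32E* (1.92) and *yellow-g2* (7.55) had the smallest adjusted p of the list. *yellow-g2* went from 0.965 and 0.639 CPM to 246 and 61.3 CPM, and its log2 fold change was 6.21 without Nipped_A RNAi library 1 and 8.28 without library 2, with no call under limma-voom. The abundant *Vm26Aa*, *Vm26Ab* and *Vm34Ca* were not called. DESeq2, the length correction and the fit without Nipped_A RNAi library 2 called *Vm26Aa* and *Vm34Ca* higher, as did the fit without library 1 for *Vm34Ca*. The count ratio of summed yolk protein genes to *Vm26Aa*, *Vm26Ab*, *Vm32E* and *Vm34Ca* together was 1.76 and 1.52 in the *bam* RNAi libraries and 2.42 and 2.68 in the others (exact permutation p = 0.333, adjusted 0.444). The yolk protein genes thus stood higher against these 4 eggshell genes in both Nipped_A RNAi libraries.

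The list of oocyte and growing cyst genes had 6 of 7 higher and 0 lower. Its sums were 568 and 502 CPM against 2242 and 1438 CPM, with library 1 above library 2 as for *yl*. *osk* rose by 3.06 ± 0.36 (2.45 and 3.54 without Nipped_A RNAi library 1 or 2), *otu* by 2.00 and *bcd* by 1.87. *grk* had 29.8 and 16.5 CPM against 19.8 and 18.6 CPM (−0.27 on the log2 scale), with overlapping groups, and was not called. Fat body is the other source of yolk proteins and of *apolpp*. The *Lsp* genes in its list encode larval serum proteins, and whether the list follows the adult cells that make yolk protein was not tested. The list had 0 of 9 tested genes higher and 5 lower, with sums of 773 and 786 CPM against 677 and 202 CPM. Robust moderation called 2 of them lower. *Fbp1* went from 59.9 and 73.6 CPM to 0.753 and 0 CPM, *Fbp2* from 31.2 and 24.0 to 0.224 and 0 CPM, and *Lsp1gamma* from 26.8 and 26.1 to 0.631 and 0.750 CPM. In Nipped_A RNAi library 2, 4 of the 10 fat body markers were at 0 counts, and 12297 of all 17023 listed genes had counts there. *Adh* had 2.71 and 4.90 CPM against 1.57 and 4.73 CPM, *fit* had 9.47 and 9.12 against 6.41 and 3.89 CPM, and neither was called. The call of *Fbp1* ended under robust moderation. *Lsp1beta* had 266 and 271 CPM against 237 and 43.8 CPM, *Lsp2* had 254 and 254 against 416 and 147 CPM, and neither was called. Without Nipped_A RNAi library 1 the log2 fold change of *Lsp1beta* was −2.62, that of *fit* −1.26 and that of *Lsp2* −0.80. Without library 2 that of *Lsp2* was 0.78, so the direction of *Lsp2* depended on the library left out.

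The gut list had 6 of 6 higher and 0 lower, with sums of 3.28 and 3.66 CPM against 845 and 2437 CPM. Limma-voom called 2 of the 6 and robust moderation 4. *Jon65Aiv*, *Jon65Aiii* and *alphaTry* had the smallest adjusted p, with log2 fold changes of 9.26, 8.56 and 8.79. Leaving out Nipped_A RNAi library 1 or 2, that of *Jon65Aiii* was 9.01 and 7.88 and that of *alphaTry* 9.44 and 7.67, and limma-voom did not call *alphaTry*. The muscle sheath list had 7 of 8 lower, with the smallest adjusted p for *Act57B* (−2.30), *TpnC73F* (−1.89) and *Mlc1* (−1.96), with sums of 25923 and 25909 CPM against 7460 and 9230.0 CPM. The other gene, *sls*, had 714 and 587 CPM against 459 and 1026 CPM (0.19 on the log2 scale), with overlapping groups, and was not called. The hemocyte list had 4 of 7 lower, with sums of 8622 and 7610.5 against 3533 and 3756 CPM. The smallest adjusted p were those of *Col4a1* (−1.73), *vkg* (−1.66) and *NimC1* (−1.78). *Col4a1*, *Pxn* and *vkg* were the most abundant of the list, at means of 2833, 2440 and 1769 CPM with *bam* RNAi. *Hml* (−0.54) and *eater* (−1.09) were not called, and whether the list follows hemocytes was not tested. The hemocyte gene *crq* had 308 and 279 CPM against 384 and 486 CPM (0.57 on the log2 scale) and was not called. It was called higher by DESeq2, with no filter on low counts, and without either Nipped_A RNAi library.

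**Figure D5:**
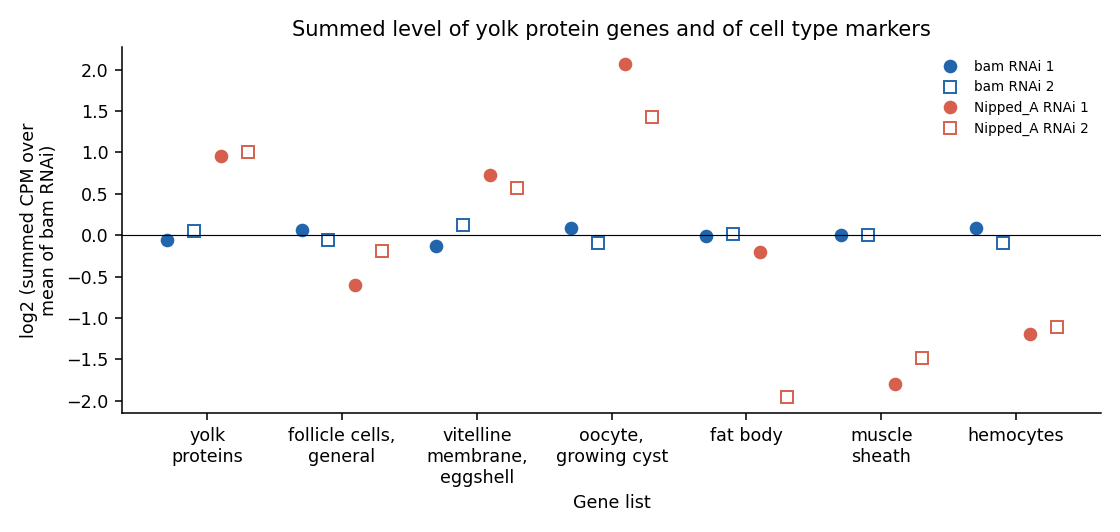
Log2 of the summed CPM of each gene list over its mean in the *bam* RNAi libraries (blue for *bam* RNAi, red for Nipped_A RNAi, filled circles for library 1, open squares for library 2). The yolk protein genes, the eggshell genes and the oocyte genes lie above 0 in both Nipped_A RNAi libraries, and the general follicle cell, fat body, muscle sheath and hemocyte lists below 0. The gut list is left out because its change is far larger.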

How the data were processed

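Each ovary library has a headerless table of raw gene counts, as deposited by the authors. Per the submitters' processing notes the tools were HISAT2 2.1.0, featureCounts 1.6.0.4 and edgeR 3.16.5 on build dm6. No source used here gives the annotation, the strand setting or the handling of multi-mapped reads. Symbols, positions and exonic lengths came from the Ensembl annotation on dm6 coordinates, which named 16647 of the 17023 identifiers. *FASN1* and *magro* were not analysed here because no identifier matched.

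The deposited counts were filtered with filterByExpr, scaled with TMM and tested in edgeR 4.0.16 (R 4.3.3) by glmQLFit and glmQLFTest, two-sided, with Benjamini-Hochberg adjustment over all 10245 genes. SE is the absolute log2 fold change over the square root of F. The steps were also run on simulated data that gave both groups the same dispersion, so the unequal spread of the real pairs was not covered. Alternatives used DESeq2 1.42.0 and limma 3.58.1 among others. The length trend was a lowess fit per library (span 0.3). Same-numbered libraries shared no deviation (r = −0.0756), so the numbers were not taken as pairs.

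Members and lists were chosen with earlier results of these data known. Named list genes are up to 3 calls with the smallest adjusted p per list. Other list genes named, among them *usp*, *dsx*, *boca*, *Chc*, *Rab5*, *Apoltp*, *Lpin*, *SREBP*, *bmm*, *Hsl*, *sturkopf*, *Vm26Aa*, *grk*, *Adh*, *fit*, *Lsp2*, *sls* and *crq*, were chosen after their values were seen.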

Additional observations from a re-analysis of the deposited data

How the results depend on the processing

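Every member kept its direction in all 14 alternatives except *LpR1* (−0.15 under upper-quartile scaling and −0.29 with the length trend removed) and *Mtp* (−0.077 under upper-quartile scaling and −0.12 without Nipped_A RNAi library 1), none of which was called. Upper-quartile scaling shifted the median log2 fold change by −0.21 over all genes, called 853 genes higher and 1556 lower, and ended the calls of *Yp1* (0.72) and *LpR2* (0.43). *LpR2* also lost its call under limma-voom (0.64) and with the length trend removed (0.34). *mdy* gained one under RLE scaling (0.94), library size alone (0.95), a filter at 1 CPM (0.88), DESeq2 (0.94) and robust moderation (0.89). DESeq2 called 2106 genes higher and 1415 lower. The members called higher numbered 5 to 8 over the 10 alternatives that keep all 4 libraries. With the replicate number as a block they stayed at 7, and 1124 genes were higher and 689 lower. Among the list genes named, the block ended the calls of *usp*, *mgl*, *lqf*, *ACC*, *Acsl* and *Hsl*. Signs turned for *boca* (0.13), *Chc* (−0.099), *SREBP* (−0.18) and *Vm26Ab* (0.44) with the length trend removed, and for *SREBP* (−0.19) and *Lsp2* (−0.075) under upper-quartile scaling. They also turned for *Lsp2* under limma-voom (−0.014) and the block (−0.038). With one library left out *SREBP* ranged from −0.053 to 0.14, *Vm26Ab* from −0.24 to 0.16, *Adh* from −1.21 to 0.31 and *Lsp2* from −0.80 to 0.78. With all 4 libraries none of the turned signs belonged to a call. The cause of these shifts was not tested.

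With one library left out, the spread comes from the other group's pair alone, and the lone library is assumed to vary like that pair. Genes called higher then ranged from 0 to 2511, genes called lower from 0 to 1771 and members called higher from 0 to 9, the 0 standing for either *bam* RNAi library. Log2 fold changes ranged from 0.79 to 1.11 for *Yp1*, 0.81 to 0.86 for *Yp2*, 1.21 to 1.45 for *Yp3*, 1.53 to 2.75 for *yl*, 0.01 to 0.14 for *LpR1*, 0.47 to 0.85 for *LpR2*, 1.38 to 1.63 for *apolpp*, −0.12 to 0.42 for *Mtp*, 1.36 to 1.49 for *Lsd-2* and 0.73 to 1.10 for *mdy*. The log2 differences of the ratios ranged from −0.06 to 0.28 (*Yp1* to *Yp2*), 0.10 to 0.66 (*Yp3* to *Yp1*), −1.73 to −0.53 (summed yolk to *yl*), −0.76 to −0.38 (*LpR1* to *LpR2*), 1.11 to 1.65 (*apolpp* to *Mtp*), −1.57 to −0.27 (*mdy* to *Dgat2*), 0.28 to 0.74 (*Lsd-2* to *Lsd-1*) and 0.53 to 0.75 (summed yolk to vitelline membrane genes). The lowest count of any member was 269, for *mdy*, and whether depth limits its call was not tested.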
